A study of Mus musculus with 4 samples.

Results

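The interferon response and antigen presentation genes analysed here are 45 of the 56748 genes listed in the count table of an RNA-seq experiment on mouse embryonic stem cells (mESCs). They were chosen by gene symbol, with earlier results of these data known. They fall into 7 genes of nucleic acid sensing, 9 of interferon signalling, 20 effectors and 9 of antigen presentation by major histocompatibility complex (MHC) class I. All 45 symbols were found in the table. The cells were E14, an established mouse ES cell line, in 4 libraries: WT1 and WT2 from WT cells, and KO1 and KO2 from 2 Npac KO lines. Npac, listed as Glyr1, encodes a reader of a histone H3 lysine methylation mark found over transcribed genes. The KO lines were made by CRISPR/Cas9 with guide RNAs against exon 3, puromycin selection and colony picking, and every culture was feeder-free, on gelatin, in medium with serum and LIF. Each KO line was sequenced as 1 library, so loss of Npac cannot be told apart from other differences that the picked colonies share. The labels do not say whether the 2 WT libraries came from separate cultures, and the p-values measure only the spread between these samples, which may be technical.

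Interferons are secreted proteins that a cell makes when sensors in the cytosol or endosome detect foreign or misplaced nucleic acid. Type I interferons bind the receptor encoded by Ifnar1 and Ifnar2, and transcription factors that include Stat2 and Irf9 then switch on interferon-stimulated genes through a promoter sequence called the interferon-stimulated response element (ISRE). Interferon gamma acts through a receptor that includes Ifngr1, and it raises the genes that cut proteins into peptides and present them on MHC class I. Pluripotent stem cells are known for a weak interferon response and for low MHC class I.

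The total count lay between 15850805 and 16965120 reads per library. Glyr1 had 3961 and 3115 reads in WT1 and WT2 and 744 and 888 reads in KO1 and KO2 (log2 fold change, log2FC, of -2.14, adjusted p = 0.00174). ES cell markers were abundant in every library. Of 10 such genes 1 was up-regulated and 2 were down-regulated, Zfp42 by -2.64 and Klf4 by -1.32 on the log2 scale. Over all genes tested, 11% were up-regulated and 10.7% down-regulated. The median log2FC of the 10 was -0.48. Both KO libraries lay below both WT libraries in 6 of them and above in 3, as in 32.5% and 33.2% of all genes. Of 10 leukocyte markers, 2 passed the filter on low counts and neither was called, and Ptprc, the defining leukocyte gene, had 0 reads in 3 libraries and 8 in WT2. Of 10 fibroblast markers, 4 had no reads, and Col1a1 was up-regulated, with 85 and 168 reads in WT cells against 285 and 326 in KO1 and KO2. Col1a1 lies on chromosome 11, whose genes as a whole were higher. Their median log2 shift was 0.48 in KO1 and 0.45 in KO2. The summed fibroblast markers ranged from 38.1 to 63.3 CPM (counts scaled to library size after TMM normalization) in WT and from 50.6 to 56.6 CPM in Npac KO cells, and the summed leukocyte markers from 19.8 to 30.5 and from 33.6 to 34.5 CPM. Of the 4 fibroblast markers tested, Col1a1, Col1a2 and Pdgfra had both KO libraries above both WT libraries, as did 33.2% of all genes tested. The median log2FC of the 4 was 1.03. Col1a2 had 3, 5, 18 and 16 reads in WT1, WT2, KO1 and KO2. It passed the filter only through the KO libraries, so its direction was fixed once it was tested. Thy1, which made up most of the sum, differed by -0.49 on the log2 scale. The part of these markers in the results was not tested. In bulk samples, fewer cells of a type and less RNA per cell cannot be told apart.

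Of the 45 genes, 38 had enough reads to be tested, and in Npac KO cells 11 of them were up-regulated, 3 were down-regulated and 24 were not called. Calls needed a fold change over 1.5 and, by edgeR's quasi-likelihood test over 18157 genes, an adjusted p (Benjamini-Hochberg) under 0.05. Over all genes tested, 11% were up-regulated, 10.7% were down-regulated and 21.7% were called in either direction, against 28.9% up-regulated and 7.89% down-regulated among the 38. The 45 genes and the lists below were chosen with earlier results of these data known, so their shares are not independent of that choice. The up-regulated genes were Dhx58, Stat2, Ifit2, Oas1a, Oasl2, Bst2, Gbp2, Trim12a, Ubd, Psmb8 and Psmb10, and the down-regulated genes were Ifngr1, Xaf1 and Sp110. Oasl2, Gbp2, Trim12a, Ubd and Psmb8 passed the filter only through the KO libraries and Sp110 only through the WT libraries, so their direction was fixed once they were tested. Among the 27 genes with at least 10 reads in every library, 5 (18.5%) were up-regulated and 2 were down-regulated, beside 10.2% in each direction of 15242 genes with as many reads. The median log2FC of the 38 was 0.24, and it was 0.24 with Trim12a and Ubd set to their lower bounds, beside 0.00 over all genes. Reads are given below in the order WT1, WT2, KO1 and KO2. In 18 genes both KO libraries lay above both WT libraries, in 8 below, and in 12 they overlapped, where 33.2% and 32.5% of all genes lay above and below.

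**Figure D1:**
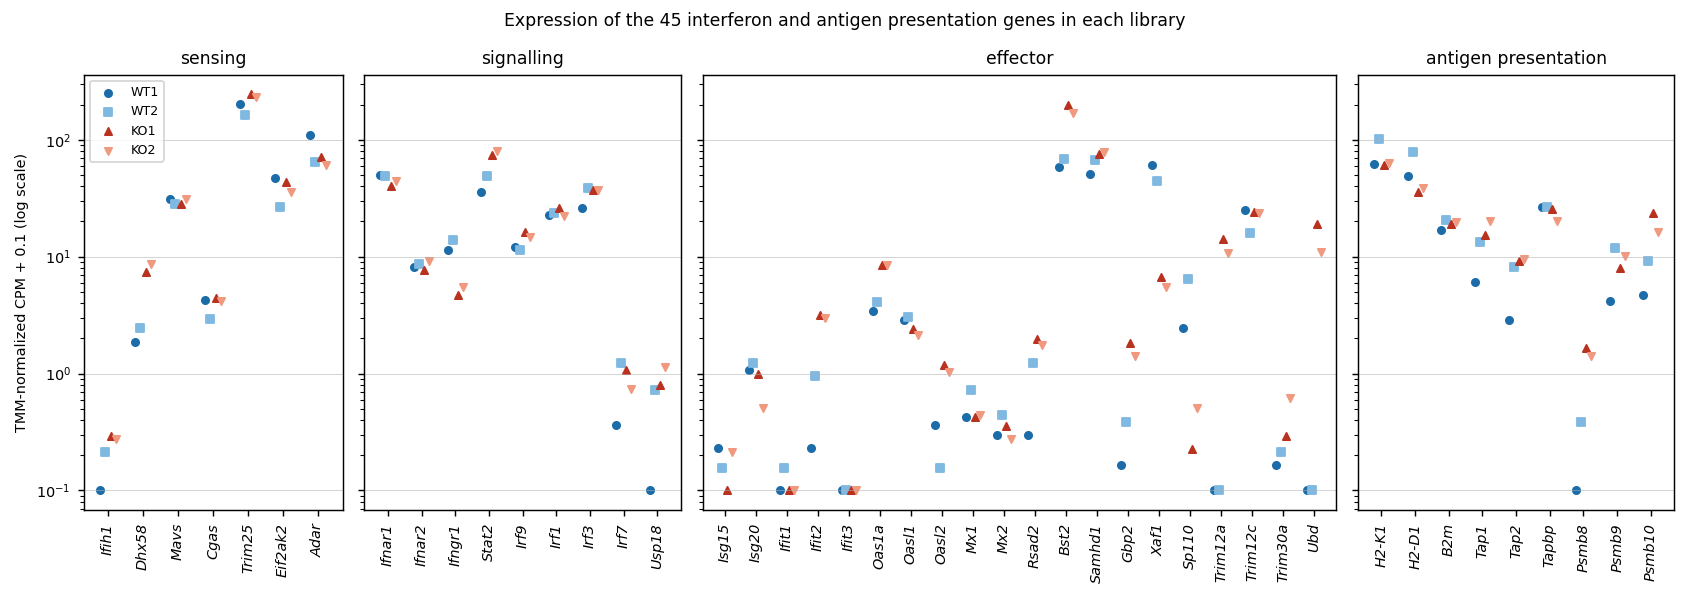
TMM-normalized CPM plus 0.1 on a log scale for the 45 genes, with 1 point per library and the genes grouped by role. The levels span from 0 reads to Bst2 at 199 CPM in KO1 and Trim25 at 245 CPM in KO1, and the WT points of Trim12a and Ubd lie at the bottom of the scale because these libraries had no reads.

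Most calls were lost when either KO line was left out. The spread in those fits came from the WT libraries alone. Over all genes tested, the WT libraries were over 1.5-fold apart in 28.4% and the KO libraries in 12.2%. The part of this spread in the lost calls was not tested. When a library was left out, the lone sample of its group was assumed to vary like the other group. Bst2, Trim12a, Ubd and Xaf1 were called in all 4 fits of 3 libraries. The filter was set on all 4 libraries, and Trim12a and Ubd passed it only through the KO libraries, so their direction was fixed. Without KO1 or without KO2, 3 of the genes were up-regulated, and over all genes the number of up-regulated genes was 642 or 671 in place of 1999. Sp110 was called in 3 of the 4 fits, with an adjusted p of 0.0539 without KO1. The fold changes of the lost genes stayed close to those from all 4 libraries, as in Dhx58, at 2.02 and 1.82 without KO1 and without KO2 against 1.93, and in Ifngr1, at -1.22 and -1.46 against -1.32. Without WT2, the library with the higher antigen presentation genes, 16 of the genes were up-regulated and 4 down-regulated. Without WT1, 11 were up-regulated and 5 down-regulated.

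Most of these genes were at a low level. In FPKM, the deposited level per length, 16 of the 45 genes were under 1 in all 4 libraries and 5 were at 10 or more in all 4. Bst2 had the highest level in both genotypes, with 64.5 and 74.5 FPKM in WT cells against 220 and 185 FPKM in KO1 and KO2. Trim25 followed with 35.2, 27.9, 42.4 and 39.3 FPKM in WT1, WT2, KO1 and KO2. B2m was at 19.6, 23.5, 22.1 and 22.5 FPKM and H2-K1 between 20.6 and 34.4 FPKM, and these neighbours in the order overlapped. Ubd, with 0 FPKM in both WT libraries, reached 20.4 and 11.6 FPKM in KO1 and KO2, the fifth highest mean of the 45 genes in Npac KO cells.

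The promoters were examined because several of these genes are textbook targets of the ISRE. RefSeq promoters (GRCm38.p6, 250 bases before to 50 after the start) were matched by symbol for 40 of the 45 genes and searched on both strands for the ISRE core, GAAA followed by any 2 bases and GAAA. It was found in 14 of the 40 genes (35%), against 3.99% of 27025 genes and 3.44% of 32851 promoters, and the genes had been picked as interferon response genes. Of the up-regulated genes 5 of 10 held it, of the down-regulated genes 0 of 3, of those tested and not called 4 of 22, and of those with too few reads to be tested 5 of 5. The core of the interferon gamma element, TTC, any 3 bases and GAA, was found in 11 of the 40 genes (27.5%), against 9.55% of all genes and 8.3% of promoters. It was held by 4 of 10 up-regulated genes, 0 of 3 down-regulated genes, 7 of 22 tested and not called and 0 of 5 not tested. The stretches upstream of the start are shown for 4 up-regulated genes and for 2 classical interferon-stimulated genes with almost no reads, 5′ to 3′ along the gene, with the letters of the ISRE core or its reverse complement in capitals.
Bst2 (up-regulated; chr8:71537547-71537642, minus strand): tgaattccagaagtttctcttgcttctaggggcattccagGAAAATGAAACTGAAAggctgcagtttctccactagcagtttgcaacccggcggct
Oas1a (up-regulated; chr5:120907526-120907585, minus strand): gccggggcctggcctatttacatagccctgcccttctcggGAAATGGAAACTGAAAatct
Gbp2 (up-regulated; chr3:142620564-142620653, plus strand): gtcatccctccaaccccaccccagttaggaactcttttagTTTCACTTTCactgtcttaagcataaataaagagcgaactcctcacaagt
Stat2 (up-regulated; chr10:128270248-128270325, plus strand): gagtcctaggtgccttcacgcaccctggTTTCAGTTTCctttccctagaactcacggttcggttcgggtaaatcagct
Isg15 (at most 2 reads in any library; chr4:156200835-156200936, minus strand): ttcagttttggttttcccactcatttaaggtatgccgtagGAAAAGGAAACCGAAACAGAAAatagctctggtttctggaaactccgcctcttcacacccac
Ifit1 (at most 1 read in any library; chr19:34640745-34640853, plus strand): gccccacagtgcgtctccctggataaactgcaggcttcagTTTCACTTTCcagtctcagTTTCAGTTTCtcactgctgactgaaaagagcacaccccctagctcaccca
In Bst2 and in Oas1a the capitals are 2 overlapping matches, from 130 to 115 and from 20 to 5 bases before the start. Isg15 holds 3 overlapping matches and Ifit1 holds 2 separate ones. The match in Trim12a lies 10 to 19 bases after the start. Matching letters were thus present in genes that rose and in genes with almost no reads in either genotype. A match is a description of the letters and not a binding site.

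Among the 6 sensing genes tested, Dhx58 was the only gene called, beside 21.7% of all genes tested, and the median log2FC was 0.19. Dhx58, which encodes LGP2, a helicase that tunes the RNA sensors RIG-I and MDA5, had 27 and 41 reads in WT cells against 113 and 147 reads in KO1 and KO2. Both KO libraries lay above both WT libraries, at 7.87 ± 0.863 CPM against 2.05 ± 0.408 CPM (SD, n = 2 each). The log2FC was 1.93 (standard error, SE, 0.39, adjusted p = 0.0144). Dhx58 lies on chromosome 11, whose genes as a whole were higher in both KO libraries, by a median of 0.48 and 0.45 on the log2 scale, and with each chromosome's median removed the log2FC was 1.47 (adjusted p = 0.0379). Without KO1 and without KO2 the adjusted p was 0.0794 and 0.114.

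The other sensing genes were not called. Trim25, an E3 ligase acting on RIG-I, had 3114 and 2834 reads in WT cells against 3808 and 3988 in KO1 and KO2, a log2FC of 0.38 (adjusted p = 0.192), and of -0.09 with the median of chromosome 11 removed. Mavs, the mitochondrial adaptor of the RNA sensors, differed by -0.01, with an SE of 0.20. Cgas, the cytosolic DNA sensor, differed by 0.26, Eif2ak2, the kinase PKR, by 0.12, and Adar, an enzyme that edits double-stranded RNA, by -0.39 on the log2 scale. In these 4 genes the KO and WT libraries overlapped. Adar had 1666 reads in WT1 and 1129 in WT2 against 1112 and 1057 in KO1 and KO2, and without WT2 it was called at -0.72 (adjusted p = 0.00229). Ifih1, which encodes MDA5, had 0, 2, 3 and 3 reads in WT1, WT2, KO1 and KO2 and was not tested.

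Sensing genes outside the 45 were described by a list of 20, of which 14 were tested, with 3 up-regulated, 1 down-regulated and a median log2FC of 0.21. Of all genes tested, 11% were up-regulated and 10.7% down-regulated. Aim2, a cytosolic DNA sensor of the inflammasome, had 501 and 548 reads in WT cells against 1239 and 1098 in KO1 and KO2 (log2FC 1.16, adjusted p = 0.0087), and without KO1 the adjusted p was 0.108. Nlrx1, a mitochondrial protein of the NLR family, had 122, 161, 271 and 288 reads in WT1, WT2, KO1 and KO2 (log2FC 0.98, adjusted p = 0.0388), and without KO1 and without KO2 the adjusted p was 0.299 and 0.222. Tlr3, the endosomal sensor of double-stranded RNA, rose from 1 and 2 reads to 24 and 27 reads (adjusted p = 0.0089). It passed the filter only through the KO libraries, so its direction was fixed once it was tested. Tlr3 lies on chromosome 8, and with the chromosome median removed it stayed called (adjusted p = 0.0155). Myd88, the adaptor shared by most Toll-like receptors, fell from 387 and 383 reads to 119 and 105 reads, a log2FC of -1.78 (adjusted p = 0.00586).

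The genes for the interferons themselves were almost silent in these libraries. Of 17 ligand genes of types I, II and III, 14 had no reads in any library, and Ifnb1 and Ifng were among them. The 3 with reads were Ifna13, with 1 read in KO2 and none elsewhere, Ifnk, with 0, 3, 2 and 4 reads in WT1, WT2, KO1 and KO2, and Ifnl2, with 0, 0, 3 and 1. All 17 together had 0 and 3 reads in WT cells against 5 and 6 in KO1 and KO2, and none could be tested. A count of 0 allows up to 3 reads, or 0.171 to 0.196 CPM per library, so lower levels were not detectable at this depth, and this limit covers counting error only.

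In interferon signalling, Stat2 was up-regulated, Ifngr1 was down-regulated and the other 7 genes were not called. Over all genes, 11% were up-regulated and 10.7% down-regulated. Stat2, the transcription factor that acts with Irf9 on the ISRE, had 550 and 848 reads in WT cells against 1142 and 1380 in KO1 and KO2. The groups did not overlap, at 42.2 ± 8.84 CPM in WT cells against 76.5 ± 4.42 CPM in the KO lines (SD, n = 2 each), with a log2FC of 0.86 (SE 0.21, adjusted p = 0.0265). Ifngr1, the ligand-binding chain of the interferon gamma receptor, had 174 and 239 reads in WT cells against 71 and 94 in KO1 and KO2. It fell from 12.5 ± 1.61 to 4.99 ± 0.609 CPM (SD, n = 2 each), a log2FC of -1.32 (SE 0.32, adjusted p = 0.0252). Without KO1 and without KO2 the adjusted p was 0.143 and 0.197 for Stat2 and 0.227 and 0.139 for Ifngr1.

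The type I receptor chains Ifnar1 and Ifnar2 had at least 118 reads in every library and were not called. Ifnar1 had 762, 848, 619 and 764 reads in WT1, WT2, KO1 and KO2 (log2FC -0.23, adjusted p = 0.408), and Ifnar2 had 123, 150, 118 and 157 reads, a log2FC of 0.00 with an SE of 0.31. With this SE, a 1.5-fold change of Ifnar2 could have been missed. Irf9, the DNA-binding partner of Stat2, had 184 and 196 reads in WT cells against 253 and 254 in KO1 and KO2 (log2FC 0.41, adjusted p = 0.288). Irf1 and Irf3, transcription factors of the same family, differed by 0.07 and 0.20 on the log2 scale, and Irf1 by -0.40 with the median of chromosome 11 removed. Irf7, which amplifies the type I response, had 4, 20, 15 and 11 reads, and Usp18, which removes the modifier ISG15 and dampens receptor signalling, had 0, 11, 11 and 18 reads. Both lay at levels where a large change could have been missed, since the SE was 0.74 for Irf7 and 1.01 for Usp18, and without WT2 Usp18 was called (adjusted p = 0.00505).

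Of 17 further signalling genes, all tested, edgeR's test called 0 in either direction, with a median log2FC of -0.10, and 4 had an unadjusted p under 0.05. With genes of any read count kept, 3 were up-regulated and 1 was down-regulated. Over all genes, 2862 were then up-regulated and 2799 down-regulated, in place of 1999 (11%) and 1946 (10.7%).

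The effectors held most of the called genes. Among the 14 tested of 20, 7 were up-regulated and 2 down-regulated, with a median log2FC of 1.28. Over all genes, 11% were up-regulated and 10.7% down-regulated. Oasl2, Gbp2, Trim12a and Ubd passed the filter only through the KO libraries and Sp110 only through the WT libraries. The direction of these genes, which enter the counts and the median, was fixed once they were tested. Among the 20, 6 had too few reads to test, including the classical interferon-stimulated genes Isg15, Ifit1, Ifit3, Mx1 and Mx2. Isg15, a ubiquitin-like modifier, had 2, 1, 0 and 2 reads in WT1, WT2, KO1 and KO2. Ifit1, which binds foreign RNA caps, had 1 read in WT2 alone, and Ifit3 had none. The antiviral GTPases Mx1 and Mx2 had 5, 11, 5 and 6 reads and 3, 6, 4 and 3 reads. These genes were thus near or at 0 in both genotypes, next to other effectors that rose.

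**Figure D2:**
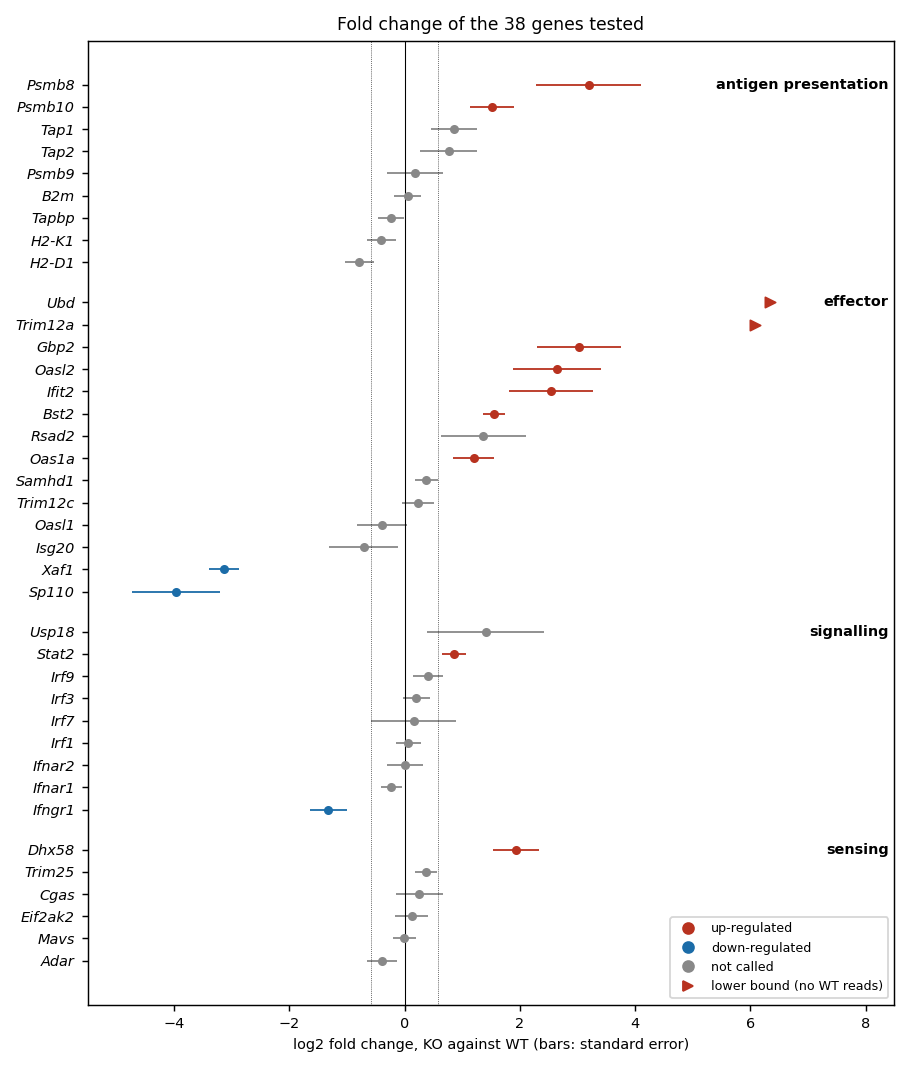
Log2FC of Npac KO against WT for the 38 genes tested, by role, with bars for the SE, dotted lines at a fold change of 1.5 and arrowheads for the lower bounds of Trim12a and Ubd. Red points are up-regulated, blue points down-regulated and grey points not called, and most signalling and sensing genes lie within 0.5 of 0 whereas the effectors spread from -3.97 for Sp110 to the bounds at the right.

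Bst2 was the most abundant effector and was up-regulated. It encodes tetherin, a membrane protein that holds budding virus particles on the cell, and lies on chromosome 8. It had 896 and 1185 reads in WT cells against 3105 and 2948 in KO1 and KO2. The groups were far apart, at 63.1 ± 6.46 CPM in WT cells against 185 ± 20.8 CPM in the KO lines (SD, n = 2 each), with a log2FC of 1.55 (SE 0.19, adjusted p = 0.0029). Genes of chromosome 8 were higher as a whole, by a median of 0.48 in KO1 and 0.49 in KO2 on the log2 scale, and with each chromosome's median removed the log2FC of Bst2 was 1.06 (adjusted p = 0.0112). The nearest tested genes on either side, Ccdc194 and Mvb12a, singled out after their values were seen, were up-regulated too, by 2.39 and 0.85 on the log2 scale. Ccdc194 passed the filter only through the KO libraries.

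Ubd and Trim12a were detected in the KO libraries alone. Ubd encodes FAT10, a ubiquitin-like protein that marks proteins for the proteasome, and had 0 reads in WT1 and WT2 against 296 in KO1 and 190 in KO2. Set against a floor of 3 reads in each WT library, its level in the KO lines was at least 81.5-fold higher (adjusted p = 0.00112). Trim12a, a mouse relative of the retroviral restriction factor TRIM5, had 0 reads in both WT libraries against 218 and 186 in KO1 and KO2, at least 67.3-fold higher (adjusted p = 0.000913). In the coordinates of the count table, Ubd lies on chromosome 17 from 37504783 to 37506986 and Trim12a on chromosome 7 from 103949101 to 103964673. Both were called in every fit that left out a library. They passed the filter only through the KO libraries, so their direction was fixed once they were tested.

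Trim12a lies in a row of related tripartite motif genes on chromosome 7, of which Trim34a, Trim5 and Trim12a were up-regulated. Trim12c, its near copy, had 379 and 278 reads in WT cells against 375 and 409 in KO1 and KO2, with a log2FC of 0.23 (adjusted p = 0.573). Reads of near-identical copies can be split between them, and the sum of both, at 379, 278, 593 and 595 reads, had a log2FC of 0.83 (adjusted p = 0.0569) and was not called. Trim5, the nearest tested gene before Trim12a, had no reads in WT cells against 42 and 41 in KO1 and KO2, at least 13.8-fold higher (adjusted p = 0.00448). It passed the filter only through the KO libraries, so its direction was fixed once it was tested. Trim34a rose from 17 and 15 reads to 80 and 123 reads (log2FC 2.63, adjusted p = 0.00879), and without KO2 its adjusted p was 0.0721. Trim34b, on the other side of Trim12a, was singled out after its values were seen. It had 28 and 29 reads in WT cells against 6 and 0 in KO1 and KO2 (adjusted p = 0.0501). Trim34b passed the filter only through the WT libraries, so its direction was fixed once it was tested. Trim6 had 3767, 3036, 3065 and 3570 reads and a log2FC of -0.06, and Trim30a, a further effector among the 45, had 1, 2, 3 and 9 reads and was not tested.

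**Figure D3:**
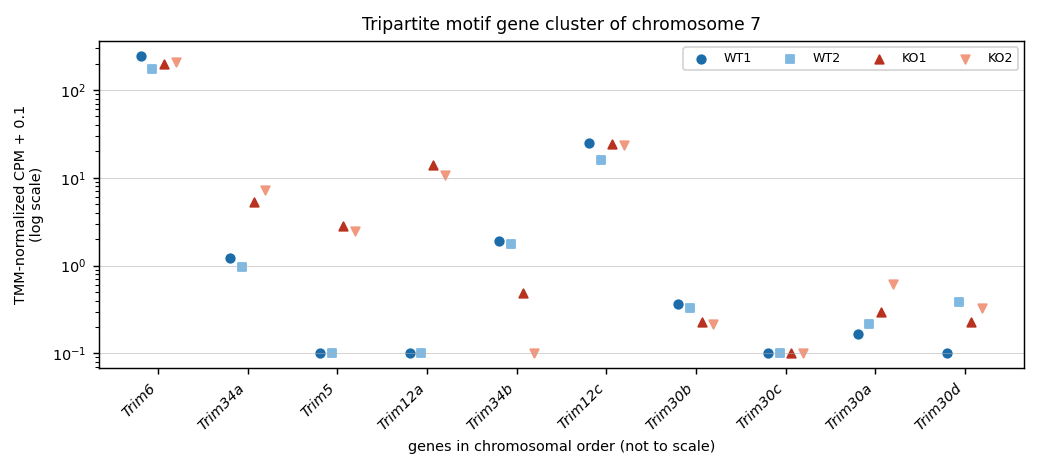
TMM-normalized CPM plus 0.1 on a log scale for 10 tripartite motif genes of chromosome 7 in the order in which they lie, with 1 point per library. Trim34a, Trim5 and Trim12a lie higher in both KO libraries, Trim34b lies lower, and Trim6 and Trim12c overlap between the genotypes.

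The remaining up-regulated effectors had few reads in WT cells. Oas1a, which makes the oligoadenylates that activate RNase L, had 51 and 70 reads in WT cells against 131 and 146 in KO1 and KO2 (log2FC 1.20, SE 0.35, adjusted p = 0.0468). The 8 Oas1 genes summed, at 252, 370, 438 and 456 reads, had a log2FC of 0.53 (adjusted p = 0.14) and were not called. Within the family, Oas1c had 58, 97, 161 and 153 reads (log2FC 1.03, adjusted p = 0.0752), with the KO libraries higher than either WT library, as in Oas1a. Oas1b had 51, 75, 32 and 39 reads (log2FC -0.82, adjusted p = 0.202), with both KO libraries below, and Oas1g and Oas1d differed by 0.12 and 0.28 on the log2 scale. Differences between the copies were not tested. Ifit2, an inhibitor of translation, had 2 and 15 reads in WT cells against 48 and 50 in KO1 and KO2 (log2FC 2.54, adjusted p = 0.0442). Its log2FC was 1.76 without WT1 and 4.43 without WT2.

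Gbp2, a guanylate-binding GTPase of cell-autonomous immunity, had 1 and 5 reads in WT cells against 27 and 23 in KO1 and KO2. Its log2FC was 3.03 (SE 0.73, adjusted p = 0.0246) and ranged from 2.36 to 4.39 with a library left out. Of the related genes before it on chromosome 3, Gbp7 had 0 and 2 reads in WT cells against 35 and 16 in KO1 and KO2 (adjusted p = 0.0183). Gbp3 had 0, 0, 6 and 8 reads and was not tested, and Gbp2b, the closest of them to Gbp2, had no reads in any library. Oasl2, an oligoadenylate synthetase-like gene, had 4, 1, 17 and 16 reads in WT1, WT2, KO1 and KO2 (log2FC 2.65, adjusted p = 0.0446), and DESeq2 did not call it (adjusted p = 0.166). Without WT2 its log2FC was 1.91 (adjusted p = 0.0892), and without WT1 it was 3.94. Without KO1 and without KO2 the adjusted p lay between 0.0787 and 0.293 for Oas1a, Ifit2, Gbp2 and Oasl2.

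Xaf1 and Sp110 were the down-regulated effectors. Xaf1, which encodes a pro-apoptotic partner of the apoptosis inhibitor XIAP, had 930 and 776 reads in WT cells against 102 and 94 in KO1 and KO2. It fell from 52.6 ± 11.6 to 5.99 ± 0.798 CPM (SD, n = 2 each), a log2FC of -3.13 (SE 0.26, adjusted p = 0.000716). The fall ran against the higher level of chromosome 11 as a whole, and with the chromosome median removed it was -3.60. The nearest tested gene before Xaf1, Slc13a5, a citrate transporter singled out after its values were seen, had 928 and 1256 reads in WT cells against 120 and 141 in KO1 and KO2 (log2FC -3.06, adjusted p = 0.000414). Sp110, a nuclear body protein, had 36 and 111 reads in WT cells against 2 and 7 in KO1 and KO2 (log2FC -3.97, SE 0.76, adjusted p = 0.0119). The WT libraries were apart from each other in Sp110, at 2.35 and 6.34 CPM, but both lay above the KO libraries at 0.128 and 0.404 CPM. Sp110 has near-identical relatives on chromosome 1, so its reads are uncertain. The nearest tested gene before it, Gm16026, also singled out after its values were seen, had 19, 67, 0 and 1 reads. Sp110 and Gm16026 passed the filter only through the WT libraries, so their direction was fixed once they were tested.

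The effectors not called were Rsad2, Samhd1, Isg20, Oasl1 and Trim12c. Rsad2, which encodes viperin, had 3, 20, 29 and 29 reads in WT1, WT2, KO1 and KO2, a log2FC of 1.36 (SE 0.74, adjusted p = 0.217). Samhd1, a hydrolase of deoxynucleotides, had 779, 1170, 1171 and 1349 reads (log2FC 0.38, adjusted p = 0.21). In both genes the KO libraries lay above WT2 by less than WT2 lay above WT1, and without WT2 both were called, Rsad2 at 3.12 (adjusted p = 0.00649) and Samhd1 at 0.59 (adjusted p = 0.0125). Isg20, an exonuclease, and Oasl1 differed by -0.71 and -0.40 on the log2 scale.

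Interferon-stimulated genes beyond the 45 were described by a list of 41, of which 34 were tested, with 13 up-regulated, the others not called and a median log2FC of 0.56. Of all genes tested, 11% were up-regulated. Ifi35, Igtp, Lgals3bp and Lgals9 of the 13 lie on chromosome 11 and Ddx60 on chromosome 8. On these chromosomes 26.5% of the genes tested were up-regulated. These genes of the list stayed called with chromosome medians removed. Ube2l6, the conjugating enzyme of ISG15, rose from 100 and 83 reads to 619 and 655 reads (log2FC 2.78, SE 0.26, adjusted p = 0.0011). Cxcl10, a chemokine, had 2 and 3 reads in WT cells against 26 and 21 in KO1 and KO2 (adjusted p = 0.0149). With Gbp7 and Trim5, these were the genes of the list with the largest fitted rise. Cxcl10, Gbp7 and Trim5 passed the filter only through the KO libraries, so their direction was fixed once they were tested. Fewer of the list were up-regulated without KO1 or without KO2, as was so over all genes. Among genes with at least 10 reads in every library, 8 of the list were up-regulated, beside 10.2% of all 15242 such genes. The number of listed genes with as many reads is not reported here.

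In antigen presentation, the subunits Psmb8 and Psmb10 of the immunoproteasome were up-regulated and the other 7 genes were not called. Over all genes, 11% were up-regulated and 10.7% down-regulated. Psmb8 had 0 and 5 reads in WT cells against 24 and 23 in KO1 and KO2 (log2FC 3.19, SE 0.91, adjusted p = 0.0432). Psmb8 passed the filter only through the KO libraries, so its direction was fixed once it was tested. The KO libraries lay above the WT libraries, but the value rested on few reads, and it was 2.27 without WT1 and 7.53 without WT2, and not called by DESeq2 (adjusted p = 0.0622). Psmb10 had 71 and 159 reads in WT cells against 364 and 280 in KO1 and KO2 (log2FC 1.52, SE 0.39, adjusted p = 0.0295). Psmb10 lies on chromosome 8, and with the chromosome median removed it was at 1.03 (adjusted p = 0.0986) and not called. Psmb9, the third inducible subunit, had 63, 205, 124 and 175 reads in WT1, WT2, KO1 and KO2, a log2FC of 0.19 (adjusted p = 0.813), with the KO libraries between the WT libraries. Without KO1 and without KO2 the adjusted p was 0.122 and 0.113 for Psmb8 and 0.221 and 0.0556 for Psmb10.

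Each inducible subunit takes the place of a constitutive subunit, so the pairs were compared per length. Of the FPKM of Psmb8 and Psmb5 together, Psmb8 made up 0% and 0.102% in WT1 and WT2 against 0.277% and 0.293% in KO1 and KO2. Psmb10 made up 6.47% and 12.5% of its pair with Psmb7 in WT1 and WT2 against 22.2% and 17.9% in KO1 and KO2. Psmb9 made up 1.14% and 2.42% of its pair with Psmb6 in WT1 and WT2 against 1.08% and 1.49% in KO1 and KO2. The share of Psmb8 and of Psmb10 was higher in both KO libraries and that of Psmb9 overlapped, and in all 3 pairs the constitutive subunit had the higher FPKM in every library. The constitutive Psmb5 was itself up-regulated, from 985 and 1303 reads to 2299 and 2079 reads (log2FC 0.95, adjusted p = 0.0147). Psmb6, the constitutive partner of Psmb9, rose from 2795 and 4231 reads to 5803 and 5930 reads (log2FC 0.75, adjusted p = 0.037). It lies on chromosome 11, and with the chromosome median removed it was not called (log2FC 0.29, adjusted p = 0.345). With KO1 or KO2 left out the adjusted p lay between 0.0602 and 0.251 for Psmb5 and Psmb6.

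**Figure D4:**
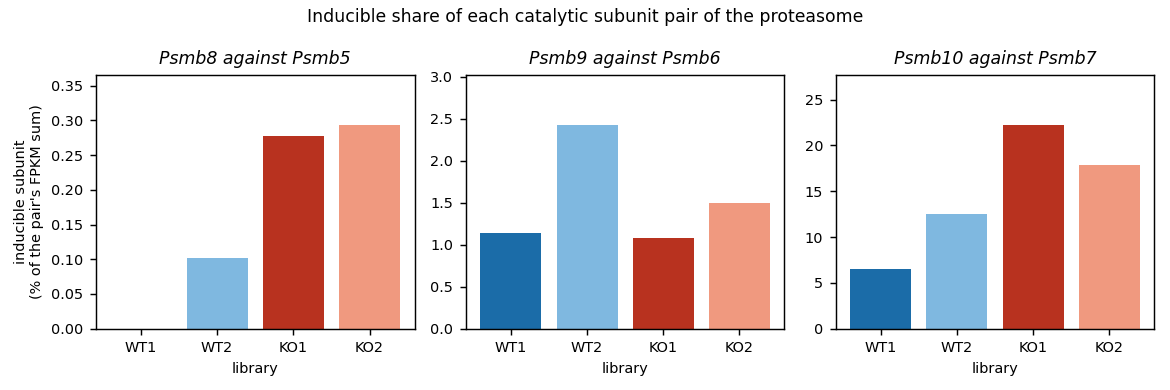
Share of the inducible subunit in the summed FPKM of each catalytic subunit pair of the proteasome, in percent, with 1 bar per library and an axis from 0 in each panel. Psmb8 reaches 0.293%, Psmb9 2.42% and Psmb10 22.2% at the highest, and the bar of Psmb8 in WT1 is 0.

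The class I molecules and the peptide loading genes were not called. Of the classical heavy chains, H2-K1 had 950, 1779, 942 and 1101 reads and H2-D1 had 752, 1387, 551 and 675 reads in WT1, WT2, KO1 and KO2. The log2FC was -0.40 (adjusted p = 0.28) for H2-K1, whose libraries overlapped, and -0.79 (adjusted p = 0.0613) for H2-D1, whose KO libraries lay below both WT libraries. H2-D1 was called with DESeq2 (adjusted p = 0.0333), with no count filter (adjusted p = 0.00957) and without WT1 (-1.12, adjusted p = 7.56e-05), and H2-K1 without WT1 (-0.74, adjusted p = 0.00221). Heavy chain genes are close copies, and H2-K1, H2-K2 and H2-D1 summed had a log2FC of -0.55 (adjusted p = 0.146). B2m, the light chain, had 259, 356, 297 and 341 reads and a log2FC of 0.06 with an SE of 0.24. Tapbp, which encodes tapasin, differed by -0.23.

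Of the chains of the peptide transporter, Tap1 had 92, 234, 236 and 349 reads and Tap2 had 42, 141, 141 and 163 reads in WT1, WT2, KO1 and KO2. Their log2FC values were 0.86 (adjusted p = 0.158) and 0.77 (adjusted p = 0.297). Without WT2 they were called at 1.55 and 1.75, and Tap1 was called with no count filter (adjusted p = 0.0464). The spread between the WT libraries was wide in this group of genes, and WT2 lay above WT1 in 8 of the 9, by a median of 0.71 on the log2 scale, beside a median of 0.01 over all genes. In 7 of the 9 the WT libraries were over 1.5-fold apart, against 28.4% of all genes, and the KO libraries were so in 0 of the 9, against 12.2% of all genes.

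Class I pathway genes outside the 45 were described by a list of 28, of which 24 were tested, with 9 up-regulated, 1 down-regulated and a median log2FC of 0.56. Of all genes tested, 11% were up-regulated and 10.7% down-regulated. The up-regulated genes included Calr on chromosome 8 and Canx and Psmb6 on chromosome 11. With chromosome medians removed, Calr stayed called (adjusted p = 0.0303), and Canx and Psmb6 did not (adjusted p = 0.362 and 0.345). Several non-classical class I genes of the H2-T region rose from few reads. H2-T22 had 37 and 77 reads in WT cells against 509 and 528 in KO1 and KO2 (log2FC 3.20, adjusted p = 0.00169), and H2-T10, a close copy of it, had 0 and 4 against 134 and 139 (log2FC 6.02, adjusted p = 0.00321). H2-T3 had 1 and 4 reads against 67 and 55, and H2-T24 had 2 and 5 against 13 and 33. H2-T10, H2-T3 and H2-T24 passed the filter only through the KO libraries, so their direction was fixed once they were tested. H2-T24 was not called by DESeq2 (adjusted p = 0.0988), without KO1 (adjusted p = 0.0604) or without KO2 (adjusted p = 0.304). H2-Bl, of the same superfamily, fell from 503 and 935 reads to 68 and 113 reads (log2FC -2.98, adjusted p = 0.0021). These genes resemble each other closely, and how the counting assigned reads between copies was not given in the sources used here, so their values are uncertain. With KO1 or KO2 left out, fewer of the list were up-regulated, as was so over all genes.

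MHC class II genes, which present peptides on professional antigen-presenting cells, were described by a list of 11, of which 7 were tested, with 4 up-regulated, the others not called and a median log2FC of 1.47. Of all genes tested, 11% were up-regulated. H2-Eb1 had 23 and 35 reads in WT cells against 236 and 185 in KO1 and KO2 (log2FC 2.87, adjusted p = 0.00406). Cd74, the invariant chain, had 42, 126, 280 and 412 reads in WT1, WT2, KO1 and KO2 (log2FC 2.06, adjusted p = 0.018). H2-DMb1 had 44, 69, 185 and 122 reads (log2FC 1.47, adjusted p = 0.0407), and H2-Aa had 0, 2, 10 and 26 reads (adjusted p = 0.0287), with no call by DESeq2 (adjusted p = 0.058) or without KO2 (adjusted p = 0.18). H2-Aa passed the filter only through the KO libraries, so its direction was fixed once it was tested. In all 7 tested genes WT2 lay above WT1. Without KO2, fewer of the list were up-regulated, as was so over all genes. Of the leukocyte markers, Cd68 had 431, 304, 523 and 527 reads (log2FC 0.49, adjusted p = 0.225), and the KO libraries were higher than either WT library. Cd68 lies on chromosome 11. The median log2 shift of that chromosome was 0.48 in KO1 and 0.45 in KO2. Ptprc had 0 reads in WT1, KO1 and KO2, and the 7 other markers below the filter had at most 15 reads in any library. The part of other cells in the class II values was not tested.

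Of the 45 genes, 6 lie on chromosomes 8 and 11, where 26.5% of 2434 genes tested were up-regulated. Of these 6, Bst2, Psmb10 and Dhx58 were up-regulated, Xaf1 was down-regulated, and Trim25 and Irf1 were not called. Both KO libraries lay above both WT libraries in 4 of the 6, as in 60.6% of the genes tested on these chromosomes, with a median log2FC of 0.95. On the other chromosomes, 8 of the 32 genes tested were up-regulated and 2 were down-regulated, with a median of 0.22. The share of all genes on the other chromosomes alone is not reported here. Over all genes tested, with chromosomes 8 and 11 included, 11% were up-regulated and 10.7% were down-regulated. The higher level of both chromosomes and the genotype cannot be told apart in these libraries.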

How the data were processed

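RNA-seq was performed on 2 WT and 2 Npac KO libraries of E14 mESCs. Per the labels, the submitters' processing used CASAVA, HISAT2 2.0.5 and featureCounts 1.5.0-p3 with the mm10 build. The authors deposited counts of reads per gene as counted, and FPKM values, which scale these counts by gene length and library size. Gene coordinates are printed as in the authors' files, and only 2.83% of 52073 shared gene identifiers had the start and end of GENCODE M21 (GRCm38), so the build of these coordinates was not settled. The strand setting was not given either.

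The counts were filtered by filterByExpr, scaled by TMM and compared by the quasi-likelihood test of edgeR 4.0.16 in R 4.3.3, which had been tested on simulated data. Every adjusted p is from this test with Benjamini-Hochberg adjustment over 18157 genes, unless DESeq2 1.42.0 is named, and calls needed a fold change over 1.5 and an adjusted p under 0.05, as in the methods of the study. CPM are counts scaled to TMM-normalized library size. The common biological coefficient of variation was 0.235. A group whose libraries had at most 3 reads each was treated as at the floor, and such genes are given by reads or as a bound. The 45 genes, their roles and all lists were chosen with earlier results of these data known. From the pathway lists, called genes were named, at most 4 per list and direction by size of change, with interferon ligands that had reads. Other called genes of the lists were named for their chromosome or their part in a comparison. Alternatives were other normalizations, DESeq2, other count filters, a replicate block, no fold threshold, removal of chromosome medians, summed gene families and leaving out each library. Protein sequences were not used here. Some genes that were tested are not reported here.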

Additional observations from a re-analysis of the deposited data

How the results depend on the processing

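The 11 up-regulated and 3 down-regulated genes became 9 to 12 and 3 to 4 under other normalizations, DESeq2, no count filter, no fold threshold and removal of chromosome medians, and the median log2 fold change was 0.23 to 0.28 under those with a value. With at least 10 counts in every library, 5 were up-regulated and 2 down-regulated, among 27 genes tested, and the median was 0.19. With each library left out, the numbers ranged from 3 to 16 and from 1 to 5, and the median from 0.26 to 0.43. Over all genes, the ranges were 642 to 3477 up-regulated and 606 to 3311 down-regulated genes. No value changed sign past the threshold. Oasl2 and Psmb8 were lost with DESeq2 and Psmb10 with chromosome medians removed, whereas H2-D1 was gained with DESeq2, with no count filter (adjusted p = 0.00957) and with the block, and Tap1 with no count filter (adjusted p = 0.0464) and with the block. The cause was not tested.

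The labels number the libraries 1 and 2 in each genotype but do not say that a number marks a shared batch, and the deviations of same-numbered libraries from their group means correlated at 0.345 across genes. With the replicate number as a block, 12 of the genes were up-regulated and 4 down-regulated, with a median log2 fold change of 0.31, and over all genes 3128 and 2994. H2-D1 (adjusted p = 0.0117) and Tap1 (adjusted p = 0.0149) were called. With 2 libraries per group, genes with few reads, such as Irf7 and Usp18, could not be measured closely.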
